A study of Mus musculus with 8 samples.

Results

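GFI1 is a zinc finger repressor that acts by bringing histone-modifying enzymes to DNA, and 10 genes that encode such partners are described here by the H3K9 acetylation of their own promoters. The genes were taken by name from the protein complexes they belong to, by a rule that uses no measured value although earlier results of these data were known, and make up 10 of 21938 protein-coding genes of the mm10 annotation. They are Kdm1a, Rcor1, Rcor2, Rcor3, Hmg20b and Phf21a of the LSD1-CoREST complex, the G9a and GLP genes Ehmt2 and Ehmt1, and Sin3a and Ajuba.

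H3K9ac ChIP-seq was performed on whole bone marrow cells, stored frozen, of C57BL/6 mice that all carried the NUP98-HOXD13 transgene, a fusion gene that gives rise to a disease resembling myelodysplastic syndrome. Mice of the GFI1-36S and GFI1-36N genotypes carried human GFI1, with serine or asparagine at the variable residue, in place of the murine gene, and GFI1-KD mice expressed GFI1 at a reduced level. Mice of each genotype received either curcumin, a natural histone acetyltransferase inhibitor, at 20 mg/kg weekly by intraperitoneal injection or the DMSO vehicle, which the labels call no curcumin. This gave 6 H3K9ac libraries, 1 per genotype and treatment. The age and number of mice behind each library are not given in the sources used here, and 2 control samples, an input and a rabbit IgG, were not used here. The question was how curcumin and the GFI1 genotype relate to H3K9ac. With 1 library per group no difference can be set against the spread between mice, so no test was made and differences are differences between libraries.

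LSD1, the product of Kdm1a, removes methyl groups from lysine 4 of histone H3 and is held on nucleosomes by the CoREST scaffold proteins, together with histone deacetylases. G9a and GLP place methyl groups on lysine 9 of histone H3, the residue whose acetylation was measured here, and methylation and acetylation cannot occupy the same lysine at once. SIN3A is the scaffold of a separate deacetylase complex. H3K9ac itself lies at the promoters of active genes on both sides of the transcription start site (TSS), and GFI1 with LSD1 is known for shaping blood cell development from bone marrow progenitors.

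The deposited lists hold between 20354 peaks (GFI1-36S curcumin) and 49213 peaks (GFI1-36N curcumin). The GFI1-36S curcumin library stood apart from the other 5. It had a peak at 14 of 14 T-cell promoters (summed rank 567, against 15.9 to 63.2 in the other 5), at 0 of 18 neutrophil promoters (11 to 17 in the other 5), at 1 of 8 progenitor promoters (7 or 8) and at 4 of 6 leukocyte promoters (6 of 6). It also had 3 peaks on chromosome Y, where the other 5 had 0, and no promoter peak at Xist, where the other 5 had a peak. The GFI1-36S pair thus differed in sex-linked promoters as well as in treatment. In addition, the names of the deposited GFI1-36S files give the 2 treatments the other way round from the labels, which were followed here, and the GFI1-36N file names give a heterozygous genotype for vehicle and a homozygous one for curcumin. Ranges over libraries are therefore given with and without the GFI1-36S curcumin library, and every change within the GFI1-36S pair turns its sign if the treatments are exchanged. The part of the differences in marker promoters in the results was not tested.

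The promoters of the 10 genes differed in base composition and in annotated starts. RefSeq gives 15 promoters for the 10 genes (build GRCm38.p6, the assembly of mm10), here the 250 bases before the start. Shown are those of the 2 lowest-ranked genes, 4 higher-ranked genes of contrasting composition and 2 starts of Phf21a, 1 within a peak and 1 far from any. Bases that fall in an annotated exon were left out at the 3′ end, and capitals mark the GC box (GGGCGG), the CCAAT box (CCAAT) and the core of the GFI1 motif (AATCAC), each searched on both strands:

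Kdm1a, chr4:136602724-136602973, minus strand: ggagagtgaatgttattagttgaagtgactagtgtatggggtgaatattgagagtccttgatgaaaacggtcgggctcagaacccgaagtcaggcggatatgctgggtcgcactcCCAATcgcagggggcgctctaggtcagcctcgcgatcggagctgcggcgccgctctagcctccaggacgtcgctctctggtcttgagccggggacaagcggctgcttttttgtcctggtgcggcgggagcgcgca
Rcor1, chr12:111039117-111039350, plus strand: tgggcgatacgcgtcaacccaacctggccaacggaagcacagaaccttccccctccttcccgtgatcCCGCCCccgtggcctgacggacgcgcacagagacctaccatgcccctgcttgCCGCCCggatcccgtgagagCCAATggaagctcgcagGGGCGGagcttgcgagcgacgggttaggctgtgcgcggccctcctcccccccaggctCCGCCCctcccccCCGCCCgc
Rcor3, chr1:192138063-192138290, minus strand: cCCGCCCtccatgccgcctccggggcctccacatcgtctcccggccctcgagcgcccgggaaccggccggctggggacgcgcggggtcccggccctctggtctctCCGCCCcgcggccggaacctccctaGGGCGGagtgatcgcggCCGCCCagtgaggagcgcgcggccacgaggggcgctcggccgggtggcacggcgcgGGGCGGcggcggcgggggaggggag
Rcor2, chr19:7267144-7267324, plus strand: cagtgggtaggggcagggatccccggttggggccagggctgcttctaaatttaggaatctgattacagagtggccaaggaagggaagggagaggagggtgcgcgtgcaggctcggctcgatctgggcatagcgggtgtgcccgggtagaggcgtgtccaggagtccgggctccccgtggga
Ajuba, chr14:54577662-54577911, minus strand: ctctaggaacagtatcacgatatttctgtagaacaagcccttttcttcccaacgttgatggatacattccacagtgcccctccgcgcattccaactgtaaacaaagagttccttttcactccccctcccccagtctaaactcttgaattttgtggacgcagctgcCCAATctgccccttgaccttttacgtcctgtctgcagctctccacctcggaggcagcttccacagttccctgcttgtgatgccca
Sin3a, chr9:57076126-57076375, plus strand: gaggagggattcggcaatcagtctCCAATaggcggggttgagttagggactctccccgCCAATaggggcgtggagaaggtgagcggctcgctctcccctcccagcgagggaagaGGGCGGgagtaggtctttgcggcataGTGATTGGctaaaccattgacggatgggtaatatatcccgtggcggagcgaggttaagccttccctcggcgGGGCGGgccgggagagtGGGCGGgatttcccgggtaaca
Phf21a acetylated start, chr2:92185233-92185458, plus strand: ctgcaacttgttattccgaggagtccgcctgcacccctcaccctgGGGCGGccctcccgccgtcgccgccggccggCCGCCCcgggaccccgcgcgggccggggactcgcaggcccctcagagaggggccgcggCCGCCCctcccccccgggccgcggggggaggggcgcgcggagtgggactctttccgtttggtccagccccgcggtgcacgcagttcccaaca
Phf21a downstream start, chr2:92221222-92221469, plus strand: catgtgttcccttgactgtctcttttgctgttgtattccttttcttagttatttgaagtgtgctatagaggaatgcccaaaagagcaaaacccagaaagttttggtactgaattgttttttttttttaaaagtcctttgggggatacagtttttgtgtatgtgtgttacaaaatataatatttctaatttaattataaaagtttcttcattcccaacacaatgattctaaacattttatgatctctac

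Motif counts and GC content are over the full 250 bases, including exonic bases not printed. A GC box was present in 12 of the 15 promoters, from 8 of the genes, and in 32.7% of all 32851 RefSeq promoters of this length. The GC box of Rcor2 lies in the 69 exonic bases left out above. The CCAAT box was present in 8 of 15, from 5 genes, against 33.8% of all. AATCAC was found in the Sin3a promoter alone, where it is read on the reverse strand and overlaps a CCAAT box (GTGATTGG), and 9.14% of all promoters hold it. Neither the NRF1 motif, the ETS motif (CCGGAAG) nor the cyclic AMP response element (TGACGTCA) was present in any of the 15, and the respective shares of all promoters were 0.782%, 6.91% and 1.55%. The TATA box (TATAAA) was present once, in the downstream Phf21a promoter, against 12.4% of all. GC content was 82.8% at Rcor3, 70.4% at Rcor1, 59.2% at Kdm1a and 50.8% at Ajuba, with a median of 52.4% over all promoters. The downstream Phf21a promoter held 30.8% GC and no CpG. These motif matches are descriptions of the letters in these windows.

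All 10 genes had an H3K9ac peak within 1 kb of a TSS in each of the 6 libraries, whereas 42.6% of protein-coding genes did. To compare libraries of different strength, the fold enrichment of a gene at its strongest promoter peak was placed among that of all genes with such a peak in the same library, giving a rank from 0 for no peak to 100 for the strongest. Intervals are 95% Poisson intervals of the fragments stacked at the peak summit, carried over to the rank, and they cover counting error only. Over the libraries, the median rank of the 10 genes was 65.5 and 55.6 in GFI1-36S vehicle and curcumin, 48.1 and 54.1 in the GFI1-36N pair and 53.8 and 52.2 in the GFI1-KD pair. In bulk bone marrow, fewer cells of one type and less acetylation per cell cannot be told apart.

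**Figure D1:**
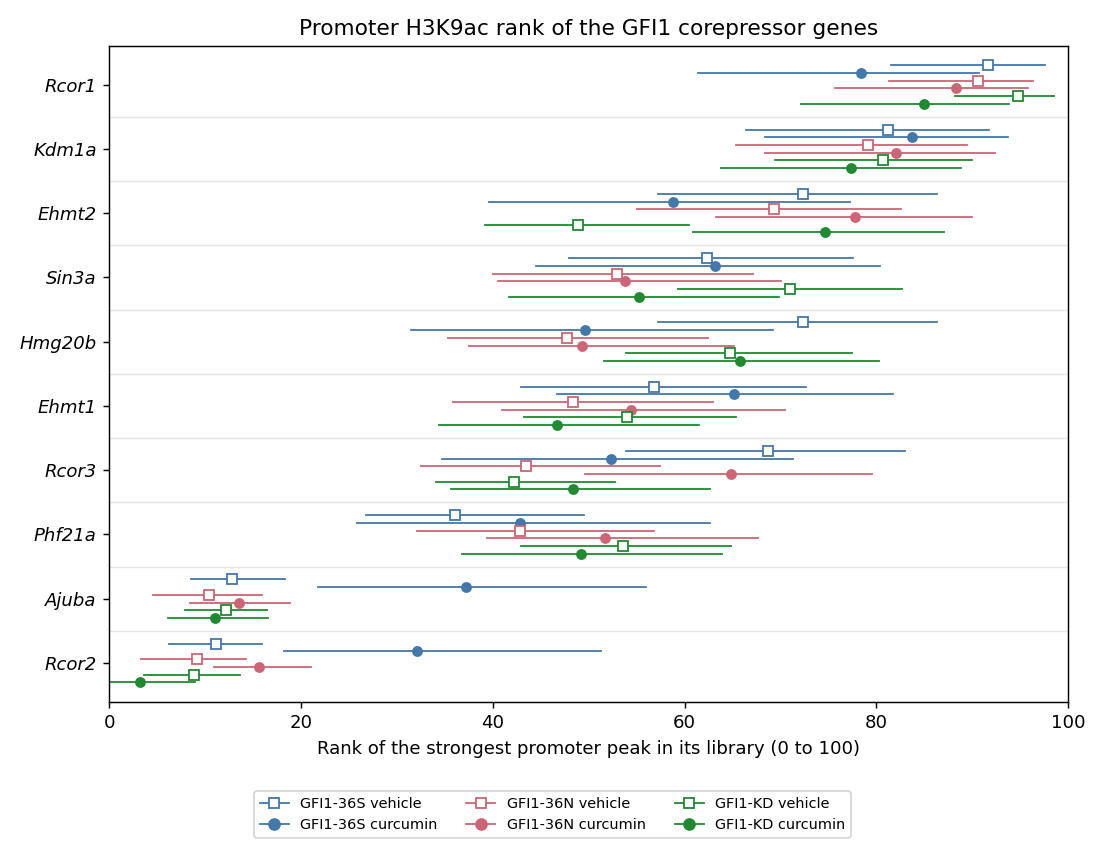
Rank of the strongest H3K9ac promoter peak (x axis, 0 to 100 within a library) of the 10 corepressor genes (y axis, ordered by median), with open squares for vehicle, filled circles for curcumin and lines for 95% counting intervals. Rcor1 and Kdm1a sit between 77.4 and 94.7 in all 6 libraries, and Rcor2 and Ajuba lie below 16 in every library but GFI1-36S curcumin.

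The 2 core genes of the LSD1-CoREST complex carried the highest ranks. Kdm1a, the demethylase itself, is on chromosome 4 (136550540 to 136602723, minus strand). Its fold enrichment was 28.4 and 19.1 in GFI1-36S vehicle and curcumin, 24.6 and 30.1 in the GFI1-36N pair and 31.7 and 26.7 in the GFI1-KD pair, with 106 to 231 fragments at the summit. On the rank scale these were 81.2, 83.7, 79.1, 82.1, 80.7 and 77.4, a range of 6.31, which was the narrowest of the 10 genes over 6 libraries. Without GFI1-36S curcumin the Kdm1a range was 4.68 and that of Ajuba, at 3.07, was narrower. The median range of the 10 genes was 21.5, and that of all 9341 genes with a peak in 6 libraries was 22.5. The Kdm1a summit lay 102 to 403 bp downstream of the nearest TSS and the peak was 1184 to 1763 bp wide.

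Rcor1 encodes CoREST1, the scaffold that joins LSD1 to nucleosomes and to deacetylases. It lies on chromosome 12 (111039351 to 111115901, plus strand). Its ranks in the same order were 91.6, 78.4, 90.6, 88.3, 94.7 and 85.0, with fold enrichments of 32.9, 17.6, 29.2, 32.5, 39.5 and 29.3. By the labels the Rcor1 rank was lower with curcumin in all 3 genotypes (-13.2, -2.30 and -9.74 units), although all 3 pairs of counting intervals overlapped. Ranks were lower at 69.1%, 39.9% and 62.9% of all genes in these pairs, and the share lower in all 3 is not given here. In GFI1-36N the fold enrichment of Rcor1 was higher with curcumin. With the GFI1-36S treatments exchanged the Rcor1 rank change was 13.2, which leaves 2 genotypes of 3. In 4 libraries 1 peak of 2938 to 3645 bp covered the start. In GFI1-36S curcumin and GFI1-36N curcumin it was called as 2 peaks on either side of a gap just upstream of the start, with similar fold enrichments (17.6 and 15.8, and 31.0 and 32.5). The summit of the strongest Rcor1 peak lay on either flank of the first TSS, 195 to 208 bp downstream in 3 libraries and at -700 to -658 bp in the other 3. Rank above 50 in all 6 libraries was met by Kdm1a, Rcor1 and Sin3a, 3 of the 10 genes, and by 38.4% of the 9341 genes with 6 peaks.

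**Figure D2:**
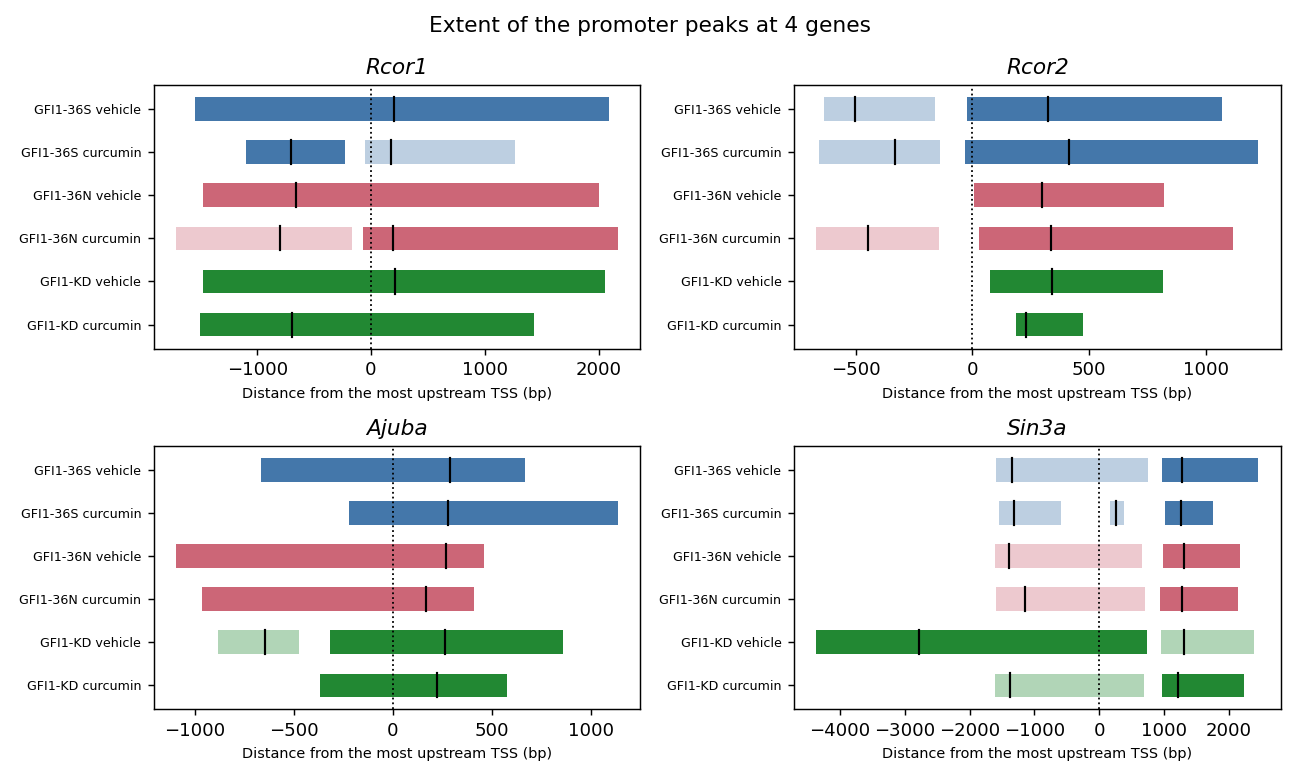
Promoter peaks (bars, strongest in full colour, others pale) at Rcor1, Rcor2, Ajuba and Sin3a in each library, by distance in bp from the most upstream TSS of the basic annotation (dotted line), with black ticks for summits. The Rcor1 peak is split in 2 libraries, the Rcor2 peak narrows to 290 bp in GFI1-KD curcumin, and the Sin3a peak reaches 5098 bp in GFI1-KD vehicle.

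The paralogue Rcor2 was at the other end of the scale. RCOR2 is a CoREST scaffold best known from embryonic stem cells and the nervous system. On chromosome 19 (7267325 to 7275225, plus strand), its fold enrichment was 6.40 and 9.79 in GFI1-36S vehicle and curcumin, 5.18 and 7.96 in the GFI1-36N pair and 5.35 and 3.99 in the GFI1-KD pair. Fragments at the summit numbered 37, 54, 35, 45, 38 and 23, and the ranks were 11.1, 32.0, 9.11, 15.6, 8.85 and 3.18. The library labelled GFI1-36S curcumin was the highest, and its interval (18.2 to 51.3) did not overlap that of GFI1-36S vehicle (6.22 to 15.9). Without that library the Rcor2 rank ranged over 12.4 units. The peak was 290 bp wide in GFI1-KD curcumin and 744 to 1259 bp in the other 5 libraries. A second, weaker peak upstream of the first basic TSS (between -669 and -139 bp) was called in GFI1-36S vehicle, GFI1-36S curcumin and GFI1-36N curcumin. The RefSeq promoter printed above lies farther upstream, and no library had a peak over it. The nearest peak was 217 to 1071 bp away.

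Rcor3 encodes a CoREST protein that can compete with CoREST1 for LSD1. Its promoter on chromosome 1 (gene at 192098546 to 192138062, minus strand) carried broad peaks of 2664 to 3160 bp, wider than at least 76.8% of promoter peaks in each library. The Rcor3 ranks were 68.7 and 52.3 in GFI1-36S vehicle and curcumin, 43.4 and 64.8 in the GFI1-36N pair and 42.2 and 48.3 in the GFI1-KD pair. Fold enrichments in that order were 24.8, 12.9, 16.0, 24.9, 19.1 and 18.7. GFI1-36S vehicle and GFI1-36N curcumin were the high libraries. The intervals were apart for GFI1-KD against GFI1-36S vehicle alone, where Rcor3 was 26.5 units lower in GFI1-KD. Over all genes, 2.17% were lower with intervals apart in that comparison. An antisense gene, Gm10516, starts 582 bp from an Rcor3 start inside the same peak in 6 libraries, so their signals cannot be told apart.

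Hmg20b encodes BRAF35, a subunit of the complex with an HMG box, and Phf21a encodes BHC80, which binds histone H3 that lacks methylation at lysine 4. Hmg20b (chromosome 10, 81346048 to 81350480, minus strand) had ranks of 72.3, 49.6, 47.8, 49.3, 64.7 and 65.8 in the library order used above. GFI1-36S vehicle and both GFI1-KD libraries were high, and all intervals of the compared pairs overlapped. The main Hmg20b peak measured 611 bp in GFI1-36S curcumin and 1199 to 1826 bp elsewhere. A weaker peak farther upstream was called in every library but GFI1-KD vehicle, with fold enrichments of 4.45 to 12.4.

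Phf21a showed which of its annotated starts was acetylated. The gene spans chromosome 2 from 92093117 to 92364666 on the plus strand, and its basic transcripts start in 4 separate places. The most upstream starts (92093117 to 92093137) had no peak within 1 kb in any library. The starts at 92184106 to 92184276 and at 92185483 had peaks in all 6, and the start at 92221562 had none. In 5 libraries the acetylated Phf21a starts shared 1 peak of 3605 to 4010 bp, while GFI1-36S curcumin had 3 shorter ones with fold enrichments of 11.4, 6.23 and 8.01. The 2 Phf21a promoters printed above mirror this split, since the GC-rich one (75.6% GC) was covered by a peak in 6 libraries and the AT-rich one (30.8% GC) lay at least 15330 bp from any peak. The strongest peak ranked 36.0 and 42.8 in GFI1-36S, 42.8 and 51.7 in the GFI1-36N pair and 53.5 and 49.2 in the GFI1-KD pair, vehicle first. Phf21a also had 1 to 7 further peaks inside the gene body, more than any other of the 10 genes in 5 of the 6 libraries. These were weak, with fold enrichments of at most 7.61.

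Of the 2 lysine 9 methyltransferase genes, Ehmt2 differed most between libraries. Ehmt2 encodes G9a and lies on chromosome 17 (34898469 to 34914052, plus strand). Its ranks were 72.3 and 58.8 in GFI1-36S vehicle and curcumin, 69.3 and 77.8 in the GFI1-36N pair and 48.9 and 74.7 in the GFI1-KD pair, the widest range of the 10 genes (28.9, with Rcor2 next and equal after rounding). The low library was GFI1-KD vehicle. Its interval (39.2 to 60.4) did not overlap that of GFI1-KD curcumin (60.9 to 87.1). Both Ehmt2 summits held 155 fragments, with fold enrichments of 21.3 and 25.8, while the median promoter of these libraries had 21.7 and 19.2. The TSS of C2, a complement gene on the opposite strand, is 204 bp from an Ehmt2 start and inside the same peak in all 6 libraries, and the 2 genes share this signal. The 3 genes with the most similar ranks over the 6 libraries were Mthfd1l (Euclidean distance 13.5 rank units), Rita1 and Ddx54 (both 14.1, with identical ranks).

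Ehmt1, which encodes the G9a partner GLP, varied less. Located on chromosome 2 (24789928 to 24919614, minus strand), it ranked 56.8 and 65.1 in GFI1-36S, 48.4 and 54.4 in the GFI1-36N pair and 54.0 and 46.7 in the GFI1-KD pair, vehicle first. All Ehmt1 intervals overlapped within the compared pairs. The peak of 1765 to 2618 bp had its summit 305 to 570 bp into the gene, and an internal start at 24891703 had no peak.

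Sin3a, the scaffold of the SIN3 deacetylase complex, is on chromosome 9 (57072040 to 57128366, plus strand). Among peaks within 1 kb of a basic start, that at the starts at 57076376 to 57076399 was the strongest in 5 libraries. In GFI1-KD vehicle the strongest was instead a single peak of 5098 bp (57070970 to 57076067) whose summit lay upstream of the nearest basic TSS (at -2782 bp). The Sin3a ranks were 62.4, 63.2, 52.9, 53.7, 71.0 and 55.3. When the summit itself had to lie within 1 kb, the GFI1-KD vehicle value was 50.9. A start at 57072040, outside the basic transcript set, had its own peak in the other 5 libraries, with fold enrichments of 8.55 to 25.8. That peak was the stronger one in GFI1-36N vehicle, GFI1-36N curcumin and GFI1-KD curcumin (19.8, 24.7 and 25.8, against 18.1, 22.2 and 20.5). When the start at 57072040 was counted, the ranks of these libraries rose to 60.8, 64.5 and 74.9. The order of the 2 GFI1-KD libraries at Sin3a thus depended on which starts and summits were counted. A lincRNA gene, 2700012I20Rik, starts 363 bp away on the other strand.

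Ajuba, a LIM domain adaptor between GFI1 and other corepressors, had low ranks with 1 exception. On chromosome 14 (54567472 to 54577558, minus strand), it showed 44, 61, 38, 39, 50 and 42 fragments at the summit and fold enrichments of 7.22, 10.5, 5.61, 6.92, 6.67 and 6.77. The ranks were 12.8 and 37.2 in GFI1-36S vehicle and curcumin, 10.4 and 13.5 in the GFI1-36N pair and 12.2 and 11.0 in the GFI1-KD pair. Over the 5 libraries without GFI1-36S curcumin, Ajuba spanned 3.07 rank units. The interval in GFI1-36S curcumin (21.7 to 56.0) lay above that in GFI1-36S vehicle (8.46 to 18.3).

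With curcumin, most of the 10 genes differed in the direction of most genes in the same libraries. Fold enrichment is a ratio to background and was not normalized between libraries. In GFI1-36N the fold enrichment was higher with curcumin at 10 of 10 genes, against 85.3% of all genes (median ratio 1.27, all genes 1.21). The background in this pair was 5.66 in vehicle and 4.78 in curcumin. The median of summit fragments over the 10 genes was 117.5 and 127.5, and Rcor1 alone had fewer with curcumin (202 and 187). In GFI1-KD it was lower at 8 of 10, against 79.6% (0.840, all genes 0.865). In GFI1-36S as labelled it was lower at 8 of 10, against 94.2% (0.650, all genes 0.593), and with the treatments exchanged it was higher at those 8 genes (1.54). Peaks were narrower with curcumin at 10 of 10 genes in GFI1-KD, against 88.2% of all genes (median width ratio 0.817, all genes 0.815). In GFI1-36S they were narrower at 8 of 10, against 94.6% (0.675, all genes 0.603; 1.48 with the treatments exchanged). In GFI1-36N 6 peaks were wider and 4 narrower, against 61.1% and 38.8% (1.01, all genes 1.04).

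Ranks place each gene among the others of its library. The median change in rank of the 10 genes, curcumin minus vehicle, was 1.64 in GFI1-36S, 4.58 in GFI1-36N and -3.84 in GFI1-KD, and over all genes it was -6.61, 1.89 and -2.34. Ranks were higher with curcumin at 6, 9 and 3 of the 10 genes, against 30.9%, 60.1% and 37.1% of all genes. With the GFI1-36S treatments exchanged, the GFI1-36S median was -1.64 and 4 of 10 genes were higher. In GFI1-36S, 2 of 10 genes (Rcor2 and Ajuba) were higher by at least 10 units and 4 (Rcor1, Rcor3, Ehmt2 and Hmg20b) were lower, against 15.0% and 41.4% of all genes. Leaving out Rcor2 and Ajuba turned the GFI1-36S median to -6.20. In GFI1-36N, 1 of 10 (Rcor3, by 21.3) was higher and 0 lower, against 19.3% and 11.3%. In GFI1-KD, 1 (Ehmt2, by 25.8) was higher and 1 (Sin3a, by 15.7) lower, against 9.47% and 20.6%. The Sin3a value turned to higher with curcumin when summits had to lie inside the window (55.5 against 50.9 for vehicle) and with the 3 kb window (74.7 against 71.2). Counting intervals were apart for Rcor2 and Ajuba in GFI1-36S, higher with curcumin, and for Ehmt2 in GFI1-KD, also higher. Marker promoters differed within the GFI1-KD and GFI1-36N pairs as well. In GFI1-KD, neutrophil promoters had a summed rank of 445 in vehicle and 204 in curcumin (17 and 11 of 18 with a peak). Erythroid promoters had 169 and 63.7 (6 and 3 of 6), while progenitor promoters had 173 and 255 (7 and 8 of 8). Hoxa9 alone had 11.0 in vehicle and 99.2 in curcumin. Of the other progenitor promoters, Cd34, Meis1 and Mecom were higher with curcumin and Kit, Gata2, Lmo2 and Flt3 lower. In GFI1-36N, neutrophil promoters had a summed rank of 226 in vehicle and 322 in curcumin. Erythroid promoters had 68.8 and 111, and leukocyte promoters 499 and 385. The part of these marker differences in the changes of the 10 genes was not tested. Over all genes, intervals were apart with a higher rank under curcumin at 5.34% in GFI1-36S, 3.96% in GFI1-36N and 2.27% in GFI1-KD, and with a lower rank at 13.4%, 2.26% and 6.94%. In GFI1-36N the intervals overlapped at all 10 genes.

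**Figure D3:**
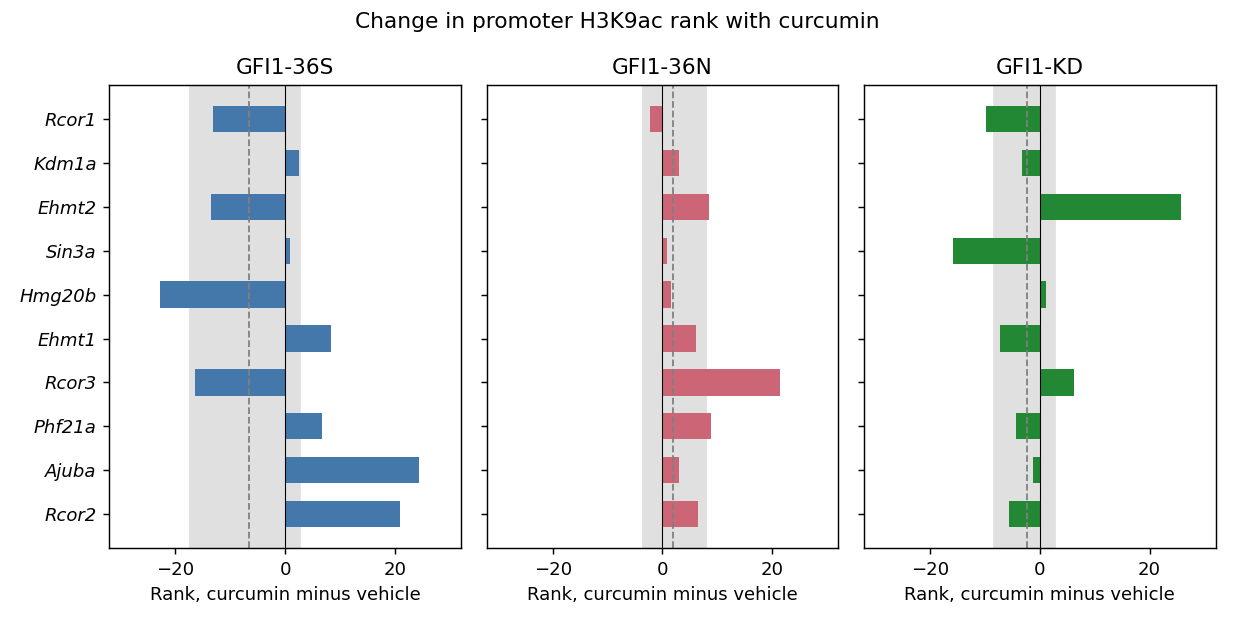
Change in promoter H3K9ac rank (x axis, curcumin minus vehicle, rank units) of the 10 genes in each GFI1 genotype, 1 library per treatment. Grey bands and dashed lines give the quartiles and median of all genes with a peak in either library, and 9 of 10 genes lie above 0 in GFI1-36N (60.1% of all genes), 6 in GFI1-36S (30.9%) and 3 in GFI1-KD (37.1%).

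Between vehicle libraries, the 10 genes were lower in GFI1-36N than in GFI1-36S at 9 of 10, against 53.6% of all genes (median change -2.71, all genes -0.67). The 2 lower by at least 10 units were Rcor3 and Hmg20b, against 17.5% of all genes. GFI1-KD against GFI1-36S gave a median of -1.42 (all genes 1.14), with Phf21a higher by at least 10 units and Rcor3 and Ehmt2 lower, against 16.4% and 9.97% of genes. GFI1-KD against GFI1-36N gave 2.97 (all genes 1.73), with Hmg20b, Phf21a and Sin3a higher and Ehmt2 lower, against 18.6% and 10.7%. The Sin3a difference turned when summits had to lie inside the window (50.9 in GFI1-KD against 53.0 in GFI1-36N). Of the 30 pairs of counting intervals, 29 overlapped, the exception being Rcor3 in GFI1-KD against GFI1-36S. The shares of all genes with intervals apart were 5.86% higher and 3.28% lower in GFI1-36N against GFI1-36S, 6.19% and 2.17% when GFI1-KD was set against GFI1-36S, and 5.81% and 4.52% in GFI1-KD against GFI1-36N. These 3 comparisons share their vehicle libraries, so they are not independent. Marker promoters also differed between the vehicle libraries. The summed rank in GFI1-36S, GFI1-36N and GFI1-KD was 280, 226 and 445 for neutrophil and 317, 273 and 173 for progenitor promoters. The median ranks were 15.8, 9.66 and 16.2 for neutrophil and 25.5, 14.1 and 11.4 for progenitor promoters. Single genes weighed heavily in the sums, with Hoxa9 at 97.4, 99.4 and 11.0 and S100a8 at 25.5, 16.1 and 74.9. The part of these marker differences in the vehicle comparisons was not tested.

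Across the 6 libraries, GFI1-36S curcumin was the highest for 4 genes (Kdm1a, Rcor2, Ehmt1 and Ajuba) and the lowest for Rcor1. At Kdm1a the margin was small (83.7, against 82.1 in GFI1-36N curcumin). The shares of all genes with this library highest or lowest are not given here, so these counts have no background. Without that library, the median range in rank of the 10 genes fell from 21.5 to 15.0, and that of all genes from 22.5 to 16.0.

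Other genes related to these complexes, 34 in all, were described in the same way. They include other partners of GFI1, LIM proteins related to Ajuba, and Gfi1 and Gfi1b themselves. A promoter peak was present in all 6 libraries at 31 of them, against 42.6% of all protein-coding genes. No library had one at Runx1t1, a corepressor better known from its fusion to RUNX1, or at Wtip, a LIM protein related to Ajuba. Gfi1b, the erythroid and megakaryocytic paralogue of GFI1, had no peak in GFI1-36S curcumin and ranked 3.18 to 17.1 in the other 5. The median rank was 59.99 for 10 genes listed with LSD1-CoREST, 67.5 for the 2 G9a partners and 73.3 for 14 SIN3 complex genes. Among the SIN3 complex genes, Arid4a was the highest of the 34 (median 94.6). Gfi1 ranked 20.96 and 68.8 in GFI1-36S vehicle and curcumin, 21.1 and 35.5 in the GFI1-36N pair and 26.7 and 29.3 in the GFI1-KD pair. In GFI1-36S and GFI1-36N mice human GFI1 stands at this locus, so these ranks are not those of an unaltered gene. GFI1-KD is also a generated strain, with lowered GFI1 expression, so the same may hold for its ranks. Gse1, a subunit found with LSD1 and CoREST, ranked 78.4, 38.4, 74.7, 67.3, 65.5 and 75.2. Gfi1 and Gse1 had the widest ranges of the 34 genes, and in both the extreme value was that of GFI1-36S curcumin. Without that library their ranges were 14.5 and 12.8 and not the widest. With curcumin, these genes (32 with a peak) had a median change of -8.97 in GFI1-36S, 0.52 in GFI1-36N and -1.75 in GFI1-KD. Over all genes the medians were -6.61, 1.89 and -2.34. By at least 10 units, 7 of the 32 were higher and 13 lower in GFI1-36S, against 15.0% and 41.4% of all genes. The counts were 7 and 5 in GFI1-36N, against 19.3% and 11.3%, and 1 and 7 in GFI1-KD, against 9.47% and 20.6%.

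**Figure D4:**
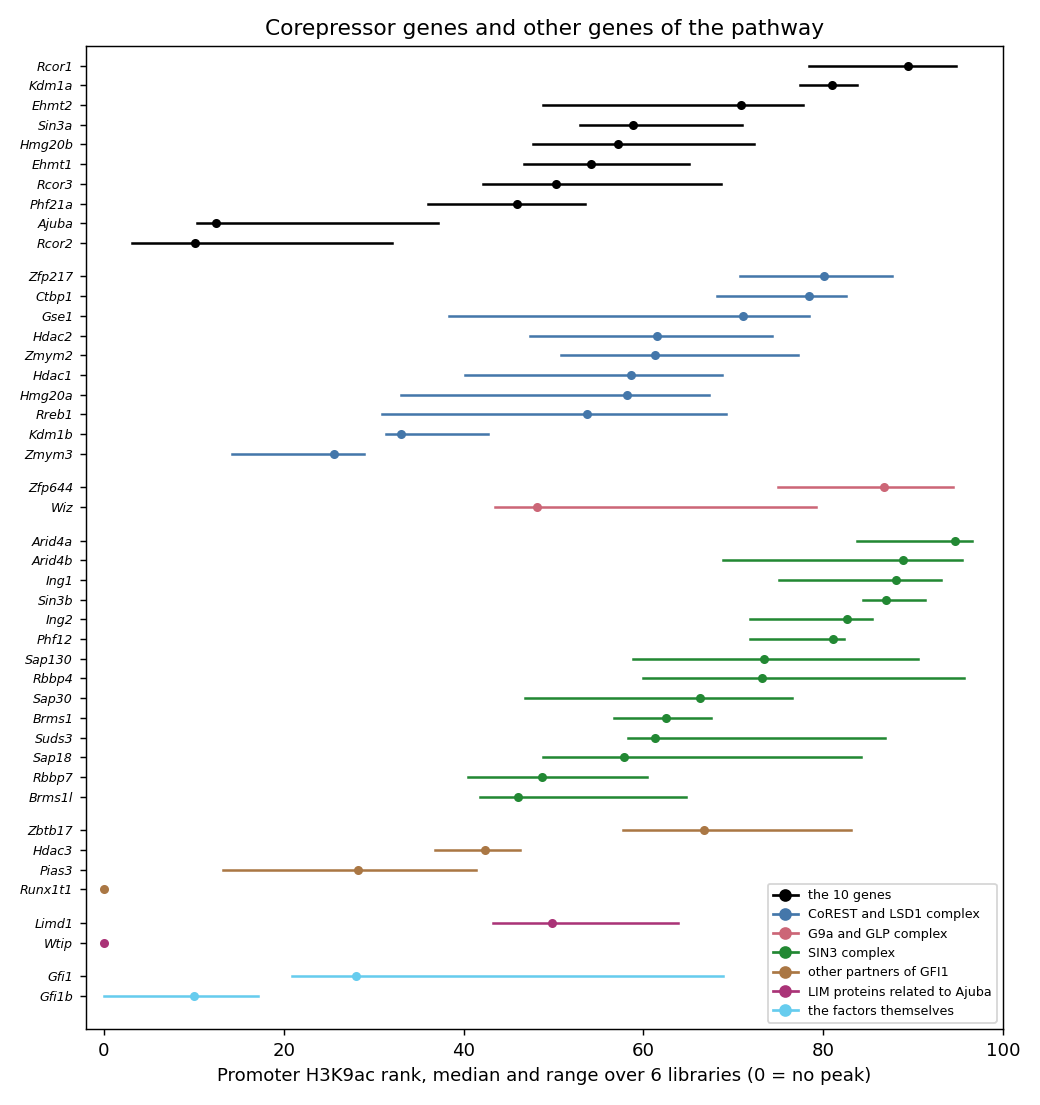
Median (point) and range (line) of the promoter H3K9ac rank over 6 libraries (x axis, 0 for no peak) for the 10 corepressor genes and 34 other genes of the pathway (y axis), coloured by list. Rcor2 and Ajuba lie in the low end together with Gfi1b, Runx1t1 and Wtip, and Arid4a is the highest.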

How the data were processed

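H3K9ac ChIP-seq peaks of 6 mouse bone marrow libraries, 1 per genotype and treatment, were analysed. Per the labels, the submitters' processing notes name Trim Galore, BWA, SAMtools, Picard, MACS2 and deepTools and the mm10 build, and the authors deposited 1 MACS2 peak list per library. Column 7 of the deposited lists is the fold enrichment at the summit, a ratio to local background. Columns 8 and 9 are −log10 p and −log10 q per the file format, and column 5 is a display score that the authors' caller derives from these. Promoters were 1 kb on each side of any TSS of the GENCODE M21 basic set, and a peak counted with 1 bp of overlap. Each gene's strongest peak was ranked by fold enrichment within its library. Fragments at the summit were recovered from fold enrichment and p-value by the caller's Poisson formula, within 0.002 in −log10 p, for 98.6% to 100% of peaks. Median fragments per peak were 24 to 36, and the total depth was not used here. Reads carry no molecular identifiers, so 95% Poisson intervals cover counting error only. Ranks were computed with Python 3.11.15, pandas 2.3.3 and scipy 1.17.1, and the recovery of fragments was tested on simulated peaks. Ranking was checked by removing or strengthening peaks of the GFI1-36S vehicle list, which checks the code only.

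All 10 genes were named. Of the 34 other genes, those with the lowest and highest median rank, the 2 with the widest range and any without a peak in all 6 libraries were named. The genes, lists and comparisons were chosen with earlier results of these data known. Alternatives were a 3 kb window, a minimum of 5 in −log10 q, equal lists of the 20354 best peaks, summits inside the window, ranking by −log10 p, autosomal genes, genes with peaks in both libraries and exchanged GFI1-36S treatments. Added after seeing the data were the comprehensive TSS set, ranking by peak width and leaving out Rcor2 and Ajuba. Marker lists had peaks at 0 to 4 of 8 B-cell promoters and 1 to 6 of 6 erythroid promoters.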

Additional observations from a re-analysis of the deposited data

Results flagged for a closer look

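By the labels, some changes with curcumin ran in opposite directions in different GFI1 genotypes. The change in rank of Rcor3, curcumin minus vehicle, was -16.4 in GFI1-36S and 21.3 in GFI1-36N. That of Ehmt2 was -13.5 in GFI1-36S and 25.8 in GFI1-KD. Both contrasts use the GFI1-36S curcumin library, which stood apart, and without GFI1-36S both genes were higher with curcumin in the other genotypes (Rcor3 by 6.19 in GFI1-KD, Ehmt2 by 8.47 in GFI1-36N). The median change of the 10 genes was 1.64 in GFI1-36S and 4.58 in GFI1-36N, and -3.84 in GFI1-KD. With the GFI1-36S treatments exchanged, as in the file names, the GFI1-36S changes were 16.4 for Rcor3, 13.5 for Ehmt2 and -1.64 for the median, and neither gene ran in opposite directions. With 1 library per group these differences were not tested.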

How the results depend on the processing

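Of the 420 ranks recomputed for the 10 genes under 7 alternatives, 408 stayed within the counting interval of the reported rank. Of the 12 outside it, 9 came from keeping the 20354 top peaks per list, which left Rcor2 without a peak in GFI1-KD curcumin (9 of 10 genes), and 3 concerned Sin3a. With the GFI1-36S treatments exchanged, as in the file names, the GFI1-36S median change with curcumin was -1.64. With the treatments as labelled and without Rcor2 and Ajuba it was -6.20. Ranked by peak width, the median change was 1.38 with curcumin in GFI1-KD and -3.81 for GFI1-KD against GFI1-36N vehicle, each opposite in sign to the reported value. The cause was not tested. The other alternatives kept the sign of every median change but moved several by over 1.5 times. The GFI1-36S change was 3.55 with equal lists and 5.48 by peak width, and the GFI1-36N change was 0.88 by peak width. The GFI1-KD change was -2.43 with the 3 kb window, -2.30 with summits inside the window and -2.28 with the comprehensive TSS set. Between vehicle libraries, GFI1-36N against GFI1-36S was -5.74 without Rcor2 and Ajuba, GFI1-KD against GFI1-36S was -2.40 by summits and -8.37 by width, and GFI1-KD against GFI1-36N was 1.74 by summits and 4.90 without Rcor2 and Ajuba. No paired analysis was possible because each group has 1 library and the labels give no replicate numbers, and no library could be left out of a group. Fragment counts of 23 to 61 limit the precision at Rcor2 and Ajuba.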
